A study of Mus musculus with 12 samples.

Results

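The genes described here encode the subunits of inhibin and activin, the proteins that bind these ligands outside the cell, and the receptors through which they signal. The set held 10 genes: Inha, Inhba, Inhbb, Fst, Fstl3, Tgfbr3, Acvr2a, Acvr2b, Acvr1b and Acvr1. All probe sets that name 1 of these genes and no other were taken, which gave 20 of the 34945 single-gene probe sets on the array and 10 of the 18193 genes they name. A further probe set that names Acvr2a together with another gene was left out.

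RNA was measured in mouse granulosa cells, the follicle's somatic cells around the oocyte and a main source of inhibin. All mice were of the strain C57BL/6J;129S5/SvEvBrd and 21 days old, and all received 5 IU of PMSG, a gonadotropin that acts like follicle-stimulating hormone (FSH) and drives follicles to grow until they can ovulate. The cells were obtained by puncturing antral follicles and were not cultured. The first group was wild type and the second lacked Inha (Inha-/-, here called the knockout), both taken 44 to 46 h after PMSG. The third was wild type and the fourth Inha-/-, both taken 6 h after a further 5 IU of hCG, which acts like the ovulatory surge of luteinizing hormone. Each group held 3 samples that the labels call independent, 1 array each, 12 arrays in all. The labels do not say whether animals were pooled within a sample.

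Inhibins and activins are built from shared parts. A beta subunit pairs with a second beta subunit to make an activin, or with the alpha subunit, the product of Inha, to make an inhibin. Activins bind a type II receptor (Acvr2a or Acvr2b), which then activates a type I receptor such as Acvr1b. Inhibins bind the type II receptors together with the co-receptor betaglycan (Tgfbr3) and so block activins. Follistatin (Fst) and follistatin-like 3 (Fstl3) bind activins and keep them from the receptors. In the ovary FSH raises inhibin output of the growing follicle, and inhibin in turn lowers FSH release by the pituitary. Mice without Inha make activins but no inhibins, and are known to develop gonadal tumours.

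The deposited values were log2 expression values, each probe set centred on its median over the 12 arrays. A value is therefore a difference from that median, not a level, and the 10 genes cannot be ranked by level. Every probe set was tested with limma over all 12 arrays, and "rose", "fell", "higher" and "lower" are used of a comparison with an adjusted p under 0.05. Of the 20 probe sets, 16 had an SD over the arrays of at least 0.151, the upper 60% of the array. The other 4 were nearly flat: those of Inhba, Acvr2b, Acvr1b and Acvr1 spanned 0.142, 0.153, 0.106 and 0.0981 from the lowest to the highest array. Whether they detect their transcript was not tested.

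The beta subunit genes differed in the letters just before their start sites, and the windows are shown because the hCG arrays of both genes differed between the genotypes. The 250 bases before the start are given from RefSeq (GRCm38.p6), 5′ to 3′ on the gene's own strand, with each CpG in capitals. The Inhba window is chr13:16011601-16011850, plus strand, and lies within the gene's span of 16004256 to 16031609 on chromosome 13, so another start lies before it. The Inhbb window is chr1:119422249-119422498, minus strand, directly before the gene (119415463 to 119422248 on chromosome 1).
Inhba: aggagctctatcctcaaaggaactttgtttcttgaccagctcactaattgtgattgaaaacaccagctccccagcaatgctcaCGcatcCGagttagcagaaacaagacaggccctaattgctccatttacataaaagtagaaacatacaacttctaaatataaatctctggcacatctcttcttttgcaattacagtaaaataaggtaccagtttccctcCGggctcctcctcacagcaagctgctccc
Inhbb: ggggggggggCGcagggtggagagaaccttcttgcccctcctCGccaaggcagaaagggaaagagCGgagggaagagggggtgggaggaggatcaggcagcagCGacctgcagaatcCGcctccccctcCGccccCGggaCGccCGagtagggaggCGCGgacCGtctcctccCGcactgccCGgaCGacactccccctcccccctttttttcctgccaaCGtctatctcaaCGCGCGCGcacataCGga
The Inhba window held 3 CpGs and 43.2% G and C, and the Inhbb window 21 CpGs and 68% G and C. Over all 32851 windows of the same length the medians were 6 CpGs and 52.4%. Short motifs of factors active in granulosa cells were searched on both strands. TGACGTCA was found in 1.55% of all windows, its own part TGACG in 17.8% and TGANTCA in 6.75%. For CAGAC the share was 42.2%, for AAGGTCA 4.08% and for AGATAA 9.99%. The Inhba and Inhbb windows held none of the 6, which says only that these letters are not in these 250 bases.

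The arrays differed in more than the genes of the set. The SD of all probe sets on an array lay between 0.371 and 0.6 on 11 arrays and was 0.727 on replicate 3 of wild type after hCG, which therefore carried the widest values. Replicate 3 of the knockout after PMSG had the lowest weight of the 12 (0.125, from limma's array weights). The correlation between replicate arrays over all probe sets was 0.514 to 0.74 in wild type after PMSG, 0.205 to 0.358 in the knockout after PMSG, 0.683 to 0.823 in wild type after hCG and 0.388 to 0.722 in the knockout after hCG. Where leaving out either of these arrays ended or gave a call, or moved a called value by over 1.5 times, the value without it or a range of adjusted p that holds it is given.

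Some marker lists of cell types moved with the groups. For 9 granulosa genes (Fshr, Foxl2 and others) a median was taken per array over the probe set of each gene with the largest SD. It lay between 0.72 and 0.744 on the wild-type arrays after PMSG and between -1.67 and -0.763 after hCG. Of all 17 probe sets of these genes, 13 fell with hCG in wild type (6.17% of all probe sets on the array fell). In the knockout the same median lay between -0.315 and 0.161 after PMSG and between -0.521 and -0.114 after hCG. There 0 of the 17 probe sets were called with hCG by limma (0 at an unadjusted p under 0.05), against 1.2% of all. Oocyte markers were higher in the knockout for 2 of 10 genes after PMSG and 6 of 10 after hCG, and theca and stroma markers for 4 and 5 of 10. Of all genes, 2.29% had a higher probe set after PMSG and 9.51% after hCG. Markers of the ovarian surface epithelium were lower in the knockout for 4 of 6 genes after PMSG and 3 of 6 after hCG (2.42% and 7.79% of all genes). Markers of leukocytes (7 genes), endothelium (6) and red blood cells (2) had 0 calls between the genotypes. The part of these cell types in the results that follow was not tested. In such bulk samples fewer cells of a type and less RNA per cell cannot be told apart.

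Inha, the gene deleted in the mutant, was checked first. In wild type its probe set (1422728_at) stood at 5.62, 5.62 and 5.87 after PMSG and at 5.52, 5.4 and 5.42 after hCG. In the knockout it stood at -7.38, -5.4 and -7.25 after PMSG and at -7.35, -7.35 and -7.4 after hCG. All 6 knockout arrays lay far below all 6 wild-type arrays, and replicate 2 of the knockout after PMSG was the highest of the 6. The difference, knockout minus wild type, was -12.38 ± 0.43 (log2, SE) after PMSG (adjusted p = 6.6e-06 by limma) and -12.81 ± 0.43 after hCG (adjusted p = 1.61e-06). The labels do not say where the deletion lies relative to the stretch of Inha that this probe set reads. The wild-type arrays after hCG lay just below those after PMSG, without overlap, by 0.26 ± 0.43 on the log2 scale (adjusted p = 0.981). The value became -2.12 (adjusted p = 0.0238) when the arrays were quantile-normalized again. This was the only 1 of 24 alternatives that called the response of Inha to hCG in wild type, and why it differed was not tested.

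Inhba, which encodes the beta A subunit of activin A and inhibin A, was low on the wild-type arrays after hCG. After PMSG its leading probe set (1422053_at) stood at -0.643, 0.116 and -0.045 in wild type and at -0.234, 0.286 and 0.41 in the knockout. After hCG it stood at -1.65, -0.49 and -2.35 in wild type and at 0.045, 0.428 and 0.206 in the knockout. The groups overlapped after PMSG, and after hCG every knockout array lay above every wild-type array. Inhba was 3.3-fold higher in the knockout after hCG (1.72 ± 0.42 log2, 95% interval 0.79 to 2.66; adjusted p = 0.026). After PMSG the difference was 0.34 ± 0.42 (-0.59 to 1.28; adjusted p = 0.731). The call after hCG was lost without replicate 3 of wild type after hCG (1.30; adjusted p = 0.0761), and also without replicate 1 of that group or any single knockout hCG array (adjusted p 0.0521 to 0.0851). The array names hold a number that the labels do not explain. After PMSG it is shared by replicate 1 of both genotypes and by replicate 2 of both, and after hCG by replicates 2 and 3 of wild type. With this number as a random block Inhba gave 1.75 (adjusted p = 0.148). The second Inhba probe set was among the flat ones.

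With hCG the Inhba mean in wild type went from -0.191 ± 0.4 (SD, n = 3) to -1.5 ± 0.939. This difference of -1.31 ± 0.42 (-2.24 to -0.37) missed the threshold (adjusted p = 0.0768), and replicate 2 of wild type after hCG lay within the PMSG range. It was called without that replicate (-1.81; adjusted p = 0.00551), with array weights (adjusted p = 0.00317), with the SD filter (adjusted p = 0.0358) and with 1 probe set per gene (adjusted p = 0.0374), and was -0.88 (adjusted p = 0.25) without replicate 3. In the knockout the means were 0.154 ± 0.342 and 0.226 ± 0.192, a difference of 0.07 (-0.86 to 1.01; adjusted p = 0.947). The difference between the hCG responses of the genotypes was 1.38 ± 0.59 (0.06 to 2.70), with an adjusted p of 0.446 by limma. It was 0.95 (adjusted p = 0.756) without replicate 3 of wild type after hCG and was called with array weights (2.38; adjusted p = 0.00986).

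Inhbb, which encodes the beta B subunit of activin B and inhibin B, had the widest difference among the probe sets other than that of Inha. Its leading probe set (1426859_at) stood at 0.193, 0.123 and 0.154 in wild type after PMSG and at 0.669, 0.694 and -0.0437 in the knockout. After hCG it stood at -2.16, -2.54 and -6.04 in wild type and at -0.0553, 0.0437 and -0.131 in the knockout. The 3 wild-type arrays after hCG lay below all other 9, and the 3 knockout arrays after hCG lay close to the PMSG arrays of either genotype. Inhbb fell 13.3-fold with hCG in wild type (-3.74 ± 0.83, -5.60 to -1.88; adjusted p = 0.018) and was 11.6-fold higher in the knockout than in wild type after hCG (3.53 ± 0.83, 1.67 to 5.39; adjusted p = 0.0226). In the knockout the response to hCG was -0.49 (-2.35 to 1.37; adjusted p = 0.848). Without both arrays that stand apart it was -0.73 (adjusted p = 0.0314), a call not made when either was left out alone. After PMSG alone the genotypes differed by 0.28 ± 0.83 (-1.58 to 2.14; adjusted p = 0.857). This difference and the response of the knockout to hCG were both called on arrays with early serial numbers only, a fit with 1 array in each hCG group.

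The second Inhbb probe set (1426858_at) was also lowest in wild type after hCG, with smaller differences. It stood at -0.076, -0.0973 and 0.076 in wild type after PMSG, at 0.094, 0.184 and 0.341 in the knockout after PMSG, at -1.31, -1.07 and -3.65 in wild type after hCG and at -0.0941, 0.172 and 0.0928 in the knockout after hCG. It fell 3.94-fold with hCG in wild type (-1.98 ± 0.55; adjusted p = 0.0451) and was 4.2-fold higher in the knockout after hCG (2.07 ± 0.55; adjusted p = 0.0377). These calls were less stable than those of the leading probe set: the fall was called in 9 of 23 alternatives and the genotype difference in 12 of 23. Leaving out any 1 of the wild-type PMSG, knockout PMSG or knockout hCG arrays ended the call of the fall (adjusted p 0.0581 to 0.117). The call of the genotype difference ended without any 1 of the wild-type PMSG or knockout hCG arrays. It also ended without replicate 2 or 3 of the knockout after PMSG (adjusted p up to 0.106 over all of these). On both probe sets replicate 3 of wild type after hCG was the lowest array by more than 2 log2 units.

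Without that array the Inhbb values were smaller and their errors smaller still. On the leading probe set the fall with hCG in wild type was then -2.51 ± 0.21 (adjusted p = 0.000364), the genotype difference after hCG was 2.30 ± 0.21 (adjusted p = 0.000792), and the difference between the genotypes' responses was 2.02 ± 0.29 (adjusted p = 0.0227). On the second probe set these values were -1.16 (adjusted p = 0.000847), 1.25 (adjusted p = 0.000784) and 1.01 (adjusted p = 0.0323). With all 12 arrays the difference between responses on the leading probe set was 3.25 ± 1.17 (0.62 to 5.88) and missed the threshold (adjusted p = 0.325). With all arrays but 1 of the knockout after hCG, the genotype difference after hCG missed it as well (3.49 to 3.58; adjusted p 0.0581 to 0.0682). Leaving out any 1 of the wild-type PMSG arrays likewise ended the call of the fall in wild type (adjusted p 0.0526 to 0.056). With the number in the array names as a random block neither was called: the fall in wild type was -3.41 (adjusted p = 0.14) and the genotype difference of Inhbb after hCG 3.31 (adjusted p = 0.16). The fall also missed the threshold with early or late serial number as a covariate (-3.11; adjusted p = 0.0691) and on the 6 arrays compared (adjusted p = 0.106). Late serial numbers were those of replicates 2 and 3 of each hCG group and of replicate 3 of the knockout after PMSG, so serial number and hCG largely went together. Among arrays with early serial numbers each hCG group has 1 array, and these differed by 2.11, a value with no replicate.

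**Figure D1:**
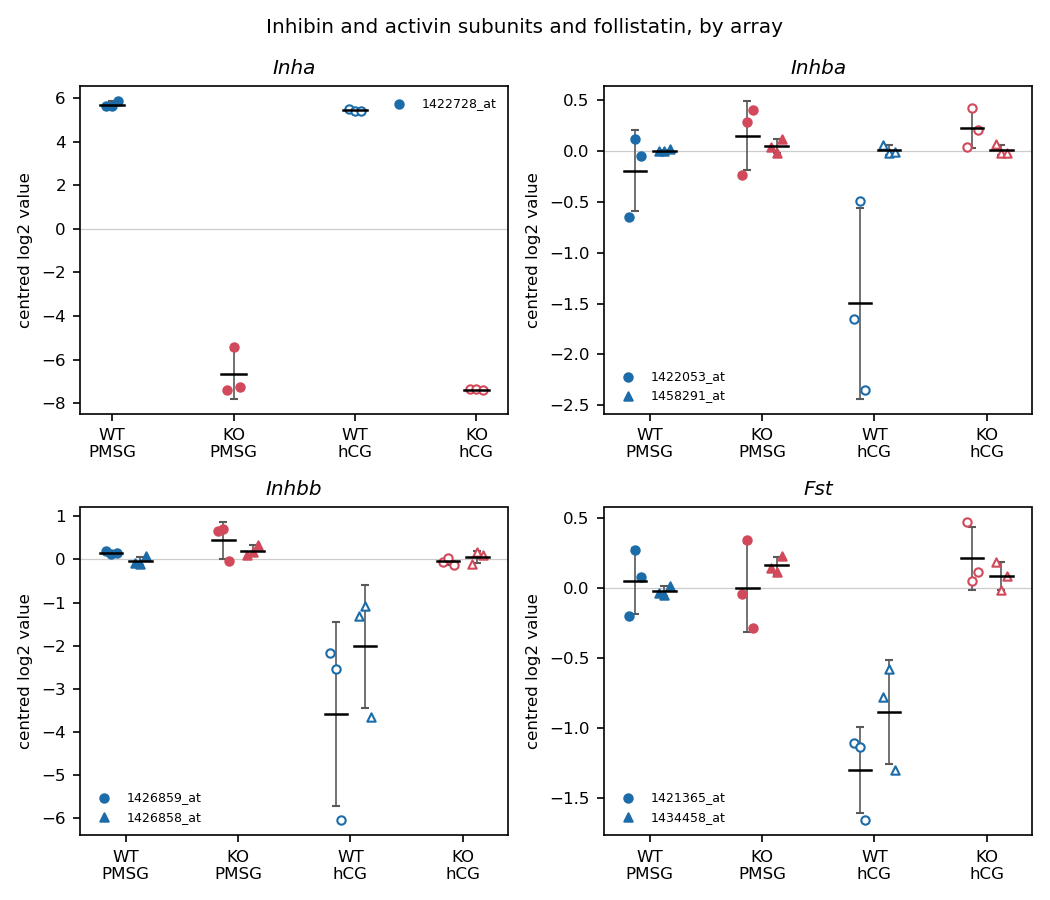
Centred log2 values of the subunit genes Inha, Inhba and Inhbb and of Fst on each of the 12 arrays, by group (blue wild type, red knockout, filled PMSG, open PMSG and hCG); marker shape tells probe sets of a gene apart and bars are mean ± SD of 3 arrays. Apart from Inha, the low points are those of wild type after hCG, down to -6.04 for Inhbb and -1.66 for Fst.

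Fst, the gene of the secreted activin antagonist follistatin, had its lowest group mean in wild type after hCG, as Inhba and Inhbb did. The SD of its leading probe set in that group was 0.315, against 0.939 for Inhba and 2.14 for Inhbb. Its leading probe set (1421365_at) stood at -0.201, 0.272 and 0.0741 in wild type after PMSG and at -0.0469, 0.338 and -0.288 in the knockout. After hCG it stood at -1.11, -1.14 and -1.66 in wild type and at 0.466, 0.0469 and 0.112 in the knockout. The 3 wild-type arrays after hCG lay below all other 9. Fst fell 2.55-fold with hCG in wild type (-1.35 ± 0.21, -1.83 to -0.87; adjusted p = 0.00404). It was 2.85-fold higher in the knockout than in wild type after hCG (1.51 ± 0.21, 1.03 to 1.99; adjusted p = 0.00217), and both calls held when any 1 array was left out. With the name number as a random block this genotype difference was 1.48 (adjusted p = 0.00977). The fall and the genotype difference were each called in 23 of 24 alternatives. The exception was early serial arrays only, which leave 1 array in each hCG group. In the knockout the response to hCG was 0.21 (-0.27 to 0.69; adjusted p = 0.848). The genotypes' responses differed by 1.56 ± 0.30 (0.88 to 2.23), just short of the threshold (adjusted p = 0.0531).

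The second Fst probe set (1434458_at) stood at -0.0374, -0.0547 and 0.015 in wild type after PMSG, at 0.137, 0.111 and 0.228 in the knockout after PMSG, at -0.784, -0.578 and -1.3 in wild type after hCG and at 0.183, -0.0151 and 0.0815 in the knockout after hCG. It fell 1.82-fold with hCG in wild type (-0.86 ± 0.15; adjusted p = 0.00712) and was 1.96-fold higher in the knockout after hCG (0.97 ± 0.15; adjusted p = 0.00357). This genotype difference was called in 23 of 23 alternatives and the fall in 21 of 23. The fall was lost with the array name number as a random block and on the 6 arrays compared (adjusted p up to 0.0677). After PMSG the knockout arrays of the second probe set all lay above the wild-type arrays, by 0.18 (adjusted p = 0.685), whereas on the leading probe set the difference was -0.05 (-0.53 to 0.43; adjusted p = 0.91).

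Fstl3, a second activin-binding protein related to follistatin, had its lowest group mean in wild type after PMSG instead. Its only probe set (1422803_at) stood at -0.717, -0.0896 and -0.375 in wild type after PMSG and at -0.629, -0.0915 and 0.042 in the knockout. After hCG it stood at 0.223, -0.042 and 0.576 in wild type and at 0.383, 0.659 and 0.42 in the knockout. In both genotypes every hCG array lay above every PMSG array, yet neither difference passed the test. It was 0.65 ± 0.22 (0.14 to 1.15; adjusted p = 0.103) in wild type and 0.71 ± 0.22 (0.21 to 1.22; adjusted p = 0.281) in the knockout. With array weights both were called (0.66 and 1.11; adjusted p = 0.0241 and 0.00225). The genotypes differed by 0.17 after PMSG (-0.34 to 0.67; adjusted p = 0.74) and by 0.23 after hCG (adjusted p = 0.741).

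Tgfbr3, the gene of betaglycan, fell with hCG in wild type on both probe sets. The leading one (1425620_at) stood at 1.09, 0.83 and 0.866 in wild type after PMSG and at -0.665, -1.17 and -1.67 after hCG. In the knockout it stood at 0.986, 1.42 and -1.02 after PMSG and at -0.462, -0.51 and 0.462 after hCG. The wild-type groups did not overlap, while in the knockout replicate 3 after PMSG lay below all 3 hCG arrays. The fall in wild type was 4.28-fold (-2.10 ± 0.57, -3.39 to -0.81; adjusted p = 0.0432). It was called in 10 of 24 alternatives and was lost on leaving out any 1 of the 6 wild-type or 3 knockout hCG arrays (adjusted p 0.0515 to 0.163, the highest at -1.85 without replicate 3 of wild type after hCG), with another scaling and with either block. On the second probe set (1433795_at), at 0.904, -0.00184 and 0.00184 before and -1.23, -0.577 and -1.63 after hCG, the fall was 2.73-fold (-1.45 ± 0.33; adjusted p = 0.0193; -1.20 with adjusted p = 0.0786 without that replicate 3). This second probe set was also lost without replicate 1 of either wild-type group (adjusted p = 0.0559 and 0.0547) and with the array name number as a random block (adjusted p = 0.128).

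In the knockout the 2 Tgfbr3 probe sets differed by -0.63 and -0.45 with hCG, and neither was called. The response of the leading one was -1.37 without replicate 3 of the knockout after PMSG. After hCG all knockout arrays lay above all wild-type arrays on both probe sets, by 1.0 ± 0.57 (-0.29 to 2.29; adjusted p = 0.383) and 0.93 ± 0.33 (0.20 to 1.66; adjusted p = 0.107). Both were called with array weights (1.52 and 1.31; adjusted p = 0.00768 and 0.00861), and the second without replicate 2 of wild type after hCG (1.22; adjusted p = 0.0418). The differences between the genotypes' responses, 1.47 and 1.0, did not pass either (adjusted p = 0.641 and 0.506). With array weights both of these were called by limma (adjusted p = 0.0379 and 0.0268). So was the knockout's fall on the leading probe set (adjusted p = 0.0342), but not on the second. In the fit over all arrays with equal weights, Tgfbr3 therefore had a called fall in wild type and no called genotype difference. That fall was called in 10 of 24 alternatives on the leading probe set and in 16 of 23 on the second.

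Acvr1, which encodes a type I receptor best known for bone morphogenetic protein signals and also able to bind activin, was the one gene of the set that rose with hCG. Its leading probe set (1448460_at) stood at -0.397, -0.398 and -0.592 in wild type after PMSG and at 0.564, 0.196 and 0.342 after hCG. In the knockout it stood at -0.142, -0.457 and -0.185 after PMSG and at 0.61, 0.142 and 0.217 after hCG. In both genotypes the hCG arrays lay above all PMSG arrays. The rise in wild type was 1.78-fold (0.83 ± 0.15, 0.50 to 1.16; adjusted p = 0.00683). In the knockout the difference was 0.58 ± 0.15 with an adjusted p of 0.133, and the responses differed by -0.25 between genotypes, which was not called. With array weights both were called by limma (adjusted p = 0.00935 and 0.035), as was the genotype difference after PMSG (0.29; adjusted p = 0.0128). The second Acvr1 probe set (1416786_at) differed by 0.47 with hCG in wild type (adjusted p = 0.238), and the third was among the flat ones. That of the second was called with array weights (adjusted p = 0.036) and without replicate 2 of wild type after hCG (adjusted p = 0.0449).

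Acvr1b, the type I receptor of activins, showed no called difference. Its leading probe set (1433725_at) stood between -0.374 and 0.522 over the 12 arrays, with both ends in the PMSG groups. Knockout and wild type differed by 0.28 after PMSG (adjusted p = 0.581) and by 0.09 after hCG, and the hCG response in wild type was 0.12.

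The type II receptor genes were not called in any comparison with equal array weights. Acvr2a (1451004_at) stood at 0.0636, 0.21 and -0.00801 in wild type after PMSG, at 0.168, -0.507 and -2.22 in the knockout after PMSG, at 0.00801, -0.297 and -0.159 in wild type after hCG and at 0.58, -0.0619 and 0.435 in the knockout after hCG. A single array, replicate 3 of the knockout after PMSG, stood far below the others. The genotype difference after PMSG was -0.94 ± 0.49 (-2.05 to 0.16; adjusted p = 0.453) with this array and -0.26 (adjusted p = 0.916) without it. The hCG response in the knockout was 1.17 ± 0.49 (adjusted p = 0.49), or 0.49 without that array. The second Acvr2a probe set (1437382_at) spanned 0.802 in all.

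Acvr2b, the other type II receptor, varied as much between replicates as between groups. Its leading probe set (1439856_at) stood at -0.46, 0.19 and -0.0209 in wild type after PMSG, at -1.33, 0.686 and 0.0209 in the knockout after PMSG, at -0.412, 0.597 and 0.136 in wild type after hCG and at 0.089, -0.221 and -0.0317 in the knockout after hCG. All 4 groups overlapped. The genotype differences were -0.11 after PMSG and -0.16 after hCG, and the hCG response in wild type was 0.20. With array weights, which count replicate 3 of the knockout after PMSG least, the difference after PMSG was -1.29 (adjusted p = 0.00423) and the hCG response in the knockout 1.13 (adjusted p = 0.0153), both called. The second probe set (1419140_at) spanned 1.22 and was not called either (genotype difference after hCG -0.50; adjusted p = 0.488).

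**Figure D2:**
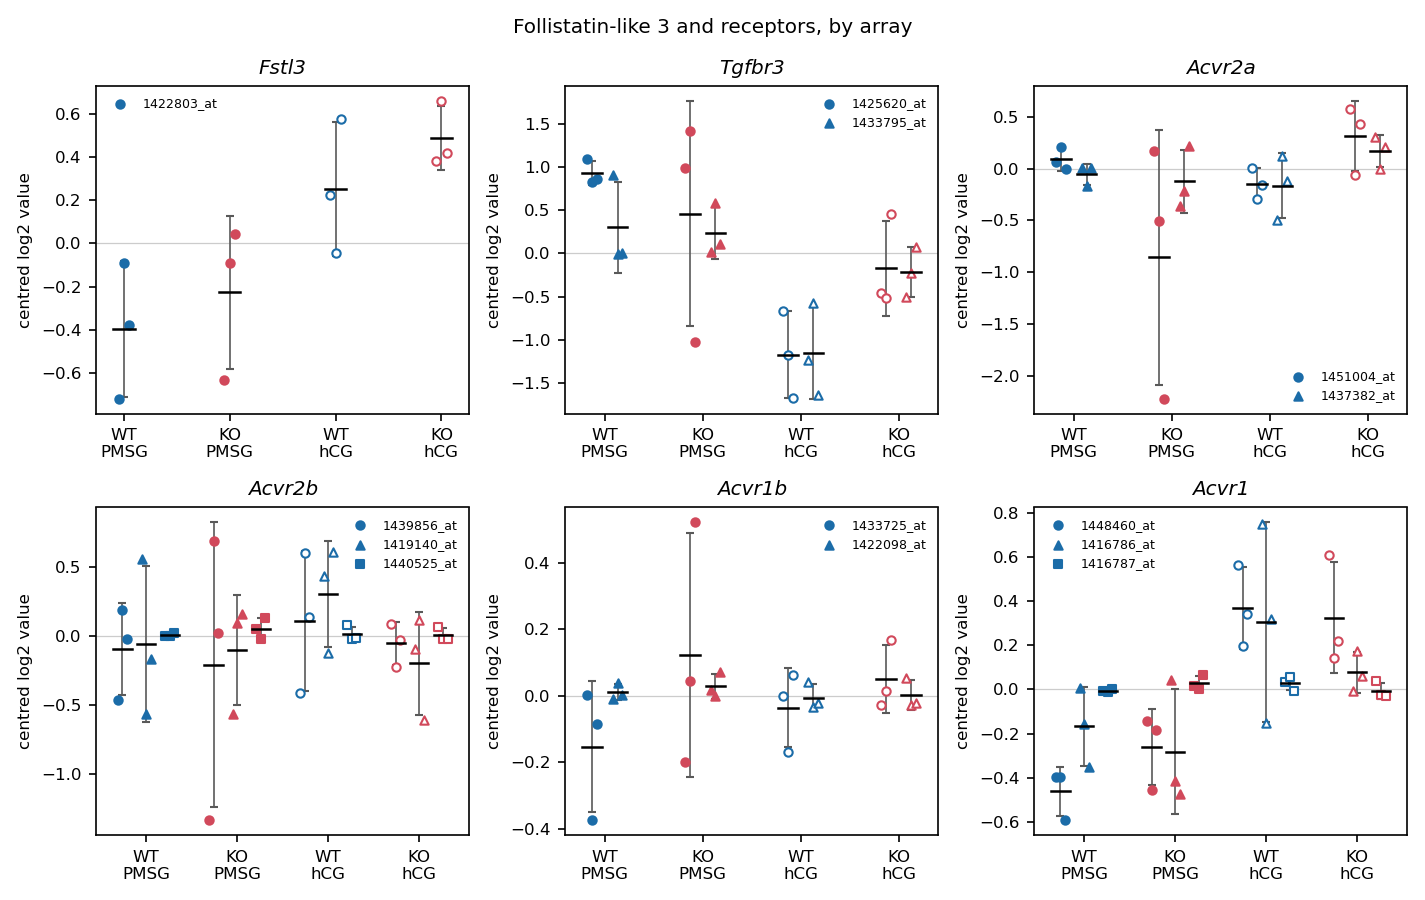
Centred log2 values of Fstl3, Tgfbr3 and the receptor genes Acvr2a, Acvr2b, Acvr1b and Acvr1 on each of the 12 arrays, with colours, shapes and bars (mean ± SD, 3 arrays) as for the subunits. Tgfbr3 is lower and the leading Acvr1 probe set higher on the wild-type hCG arrays than on the wild-type PMSG arrays, and 1 knockout PMSG array stands at -2.22 for Acvr2a.

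Counted over the set, the knockout differed from wild type after PMSG on 1 of 20 probe sets, that of Inha, against 3.04% of all single-gene probe sets. Arrays of the genotypes did not overlap on 3 of 20 (17.8% of all). After hCG, 5 of 20 were higher in the knockout (6.58% of all) and 1 was lower (5.55%). The higher ones were the 5 of Inhba, Inhbb and Fst just described. Groups did not overlap on 8 of 20 (26.4% of all). The median difference after hCG was 0.16 over the 20 probe sets and -8e-04 over all, and after PMSG 0.03 and 0.04.

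With hCG in wild type, 6 of 20 probe sets fell (6.17% of all), those of Inhbb, Fst and Tgfbr3, and 1 rose (5.98% of all). Groups did not overlap on 9 of 20 (28.5% of all). In the knockout 0 of 20 were called by limma (3 at an unadjusted p under 0.05), against 1.2% of all probe sets, and 2 of 20 did not overlap (10.6% of all). The test of the difference between the responses called 0 of 20 by limma (5 at an unadjusted p under 0.05), against 0.93% of all. The comparisons of genotype after hCG and of hCG in wild type share the 3 wild-type hCG arrays, so their calls on Inhbb and Fst are not independent of each other.

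**Figure D3:**
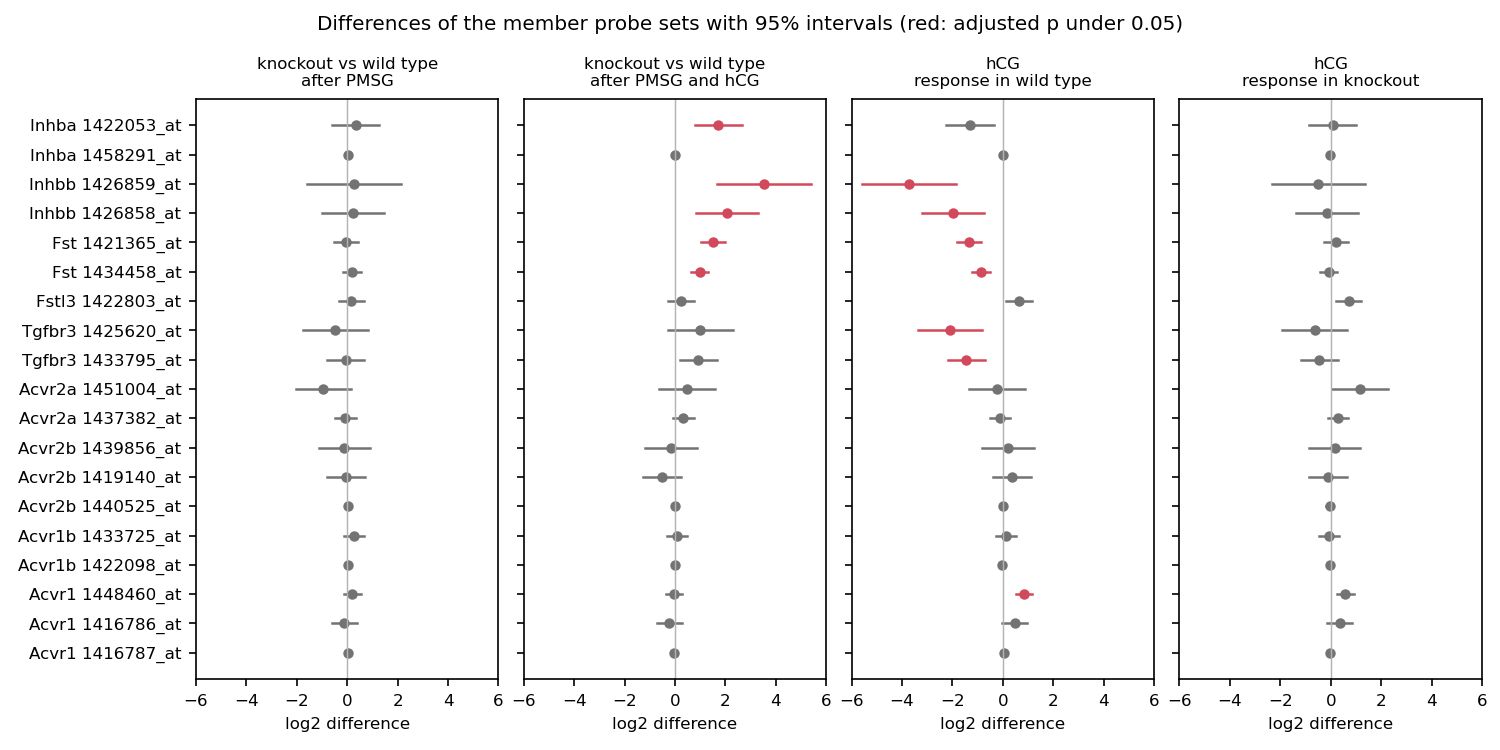
Log2 differences with 95% confidence intervals from limma for the 19 probe sets other than that of Inha, in the genotype and hCG comparisons, in red where the adjusted p is under 0.05. Inhba, both Inhbb and both Fst probe sets lie above 0 for knockout against wild type after hCG, and the intervals of the same probe sets include 0 for hCG in the knockout.

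**Figure D4:**
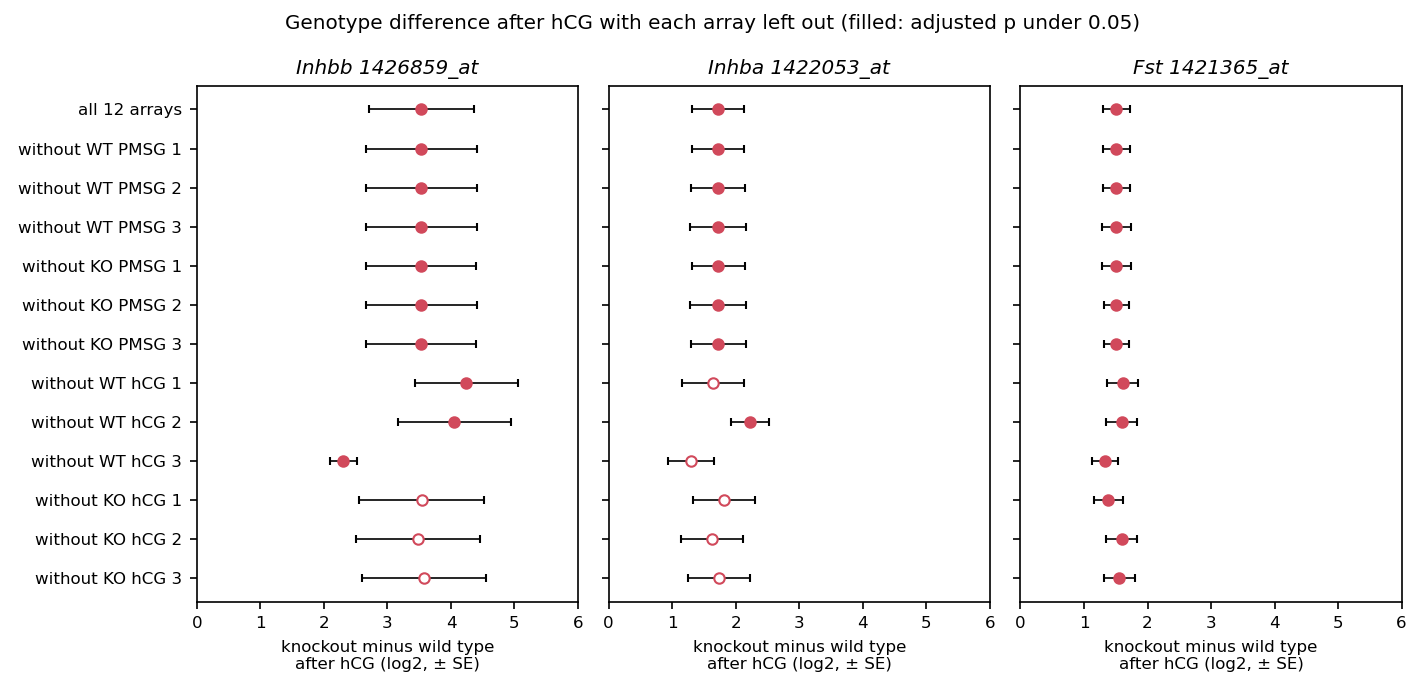
Log2 difference ± SE between knockout and wild type after hCG for the leading probe sets of Inhbb, Inhba and Fst, with all 12 arrays and with each array left out in turn, filled where the adjusted p is under 0.05. The Inhbb difference between genotypes after hCG moves from 3.53 to 2.30 without replicate 3 of wild type after hCG, while the Fst difference stays between 1.33 and 1.61.

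Other genes of the pathway were taken from a list of 32, of which 30 were measured by 59 probe sets. Between the genotypes after PMSG, 2 genes were higher in the knockout and 1 was lower, and 27 were not called (of all genes, 2.29% had a higher and 2.42% a lower probe set). Tdgf1, the Cripto co-receptor of Nodal, was higher by 2.08 ± 0.26 (adjusted p = 0.00473). Fstl1, a secreted relative of follistatin, was higher by 2.43 ± 0.41 (adjusted p = 0.0154). Smad3, a transducer that activin receptors phosphorylate, was lower on 1 of its 3 probe sets, at -0.72 ± 0.15 (adjusted p = 0.0358). The other Smad3 probe sets differed by -1.93 and -1.12, in the same direction, and were not called (adjusted p = 0.314 and 0.373 by limma).

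After hCG, 5 of the 30 were higher in the knockout and 2 lower, with 23 not called (9.51% and 7.79% of all genes). Tdgf1 (3.04; adjusted p = 0.000234) and Fstl1 (2.02; adjusted p = 0.0115) were again higher. Pcsk6, a convertase that cleaves ligand precursors of this family (1.41; adjusted p = 0.0092), and Bmpr2, a type II receptor for bone morphogenetic proteins (1.53 on 1 of 3 probe sets; adjusted p = 0.0133), were higher as well. Smad3 was lower on the same 1 of 3 probe sets (-0.93; adjusted p = 0.00407; the others -0.81 and 0.11), as was Fkbp1a, whose product binds type I receptors and keeps them inactive (-1.11; adjusted p = 0.00202).

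In wild type, hCG raised 4 of the 30 genes and lowered 2 (8.24% and 9.42% of all genes). Fkbp1a rose by 1.22 (adjusted p = 0.00125), Furin, another convertase, by 1.91 (adjusted p = 0.0128), Pcsk6 by 1.23 (adjusted p = 0.018) and Tgfbr2, the type II receptor of TGF-beta, by 1.05 on 1 of its 3 probe sets (adjusted p = 0.0356). The other Tgfbr2 probe sets stood at -0.41 and 0.05 and were not called. Bmpr2 fell by 1.65 (adjusted p = 0.00996) and Tdgf1 by 1.31 (adjusted p = 0.0124). In the knockout 1 of the 30, Pcsk6, was called, with a rise of 1.88 (adjusted p = 0.0098; 1.83% of all genes). The responses differed between genotypes for Fkbp1a (-1.23; adjusted p = 0.038, on 1 of 5 probe sets), 1 of the 30 genes against 1.55% of all.

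The genes with the most similar profiles were found by the root mean square (RMS) difference of centred values over the 12 arrays. For Inhba, whose own RMS value was 0.887, they were Smyd3 (0.165), St3gal5 (0.245) and Acat1 (0.274). For Inhbb (2.01) they were Psd (0.445), Nppc (0.448) and Ihh (0.466). For Fst (0.697) they were Scap (0.199), Fgfrl1 (0.203) and Tubgcp2 (0.205). Nppc encodes the C-type natriuretic peptide that granulosa cells send to the oocyte's companion cells, and Ihh a hedgehog ligand. All 9 profiles share the 12 arrays and their differences in spread, and the measure says nothing about the genes' function.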

How the data were processed

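Each of 12 granulosa cell RNA samples was hybridised to 1 single-colour Affymetrix array. The authors processed the scans with GCRMA, per the submitters' processing notes; its version is not given in the sources used here. Log2 values make up the deposited table, in which every probe set has its median at 0 (at most 5e-07 away), a centring that no label states. Depth is not defined for arrays: their number limits the precision.

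Samples were grouped by titles and characteristics. The annotation table names 1 gene for 34945 of the 45101 probe sets. The 64 controls, 932 probe sets with several genes and 9160 with none were left out. No filter was applied. A group-means model was fitted with limma 3.58.1 in R 4.3.3 (8 residual degrees of freedom), with moderated variances and Benjamini-Hochberg adjustment over all 34945 probe sets of a comparison. P-values measure the spread between samples the labels call independent. Where a gene has several probe sets, the one with the largest SD is described first. Named genes are all members, up to 4 called genes of the pathway list per comparison and direction, and the 3 most similar profiles of Inhba, Inhbb and Fst. The members and lists were chosen with earlier results of these data known. Promoter windows are RefSeq's, with an entry for 8 of the 10 genes, not for Fst and Tgfbr3.

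On simulated data with 34945 probe sets, in the comparison of genotypes after PMSG, 57% of changes of log2 1 and 84% of log2 2 were recovered, with 8 false among 149 calls. The simulated noise was independent between arrays and equally wide on each. The measured arrays had weights from 0.125 to 7.64, so these shares need not hold for them. Alternatives were other scalings, an SD filter, 1 probe set per gene, robust variances, array weights, the replicate number as a block, array name number and serial number as batches, fewer arrays and each array left out. Leaving out both arrays that stand apart was added after the data were seen.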

Additional observations from a re-analysis of the deposited data

Results flagged for a closer look

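The hCG arrays of the genotypes lay on opposite sides of their own PMSG mean for 2 of the 20 probe sets. How many of all probe sets do so was not counted, so no share stands beside this count. For Fst (1421365_at) all 3 wild-type arrays after hCG lay below the wild-type PMSG mean and all 3 knockout arrays above the knockout PMSG mean, and the responses differed by 1.56 (log2; adjusted p = 0.0531 by limma). For Acvr2a (1451004_at) the same held, with a difference of 1.41 (adjusted p = 0.555). The Acvr2a difference was 0.73 without replicate 3 of the knockout after PMSG.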

How the results depend on the processing

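Over 2310 alternative values of the 100 member results, 2197 kept their side of the threshold, 71 lost the call and 42 gained one. The sign differed in 123, and 0 of these were called in either fit. The limits are the 3 arrays per group, the single wide array of wild type after hCG and values without levels. Of all probe sets, 1062 were called between genotypes after PMSG, and 9207 with array weights, 2596 with the array name number as a random block, 158 on early serial arrays, 499 on the 6 arrays compared and 611 without both arrays that stand apart. The genotype difference after hCG gave 4238 calls, and 2672 with 1 probe set per gene, 9309 with weights, 2297 with the random block, 1160 on early arrays and 2747 without both. The hCG response gave 4245 calls in wild type, and 2764 with 1 probe set per gene, 10699 with weights, 1962 with the random block, 1937 on early arrays and 2520 without both. In the knockout it gave 419, and 8962 with weights, 254 on early arrays and 175 on 6 arrays. The interaction gave 325, and 7385 with weights and 198 without both. Member calls after PMSG were 1, and 3 with weights and 2 on early arrays. After hCG they were 6, and 3 with the random block and 3 on 6 arrays. For hCG in wild type they were 7, and 2 with the random block, 4 with the serial covariate, 4 on early arrays and 3 on 6 arrays. For hCG in the knockout they were 0, and 5 with weights, 1 on early arrays and 1 without both. For the interaction they were 0, and 1 with the SD filter, 1 with 1 probe set per gene, 9 with weights, 1 with the covariate, 2 on early arrays and 2 without both. The cause was not tested, apart from the fewer probe sets or arrays that some settings hold. With each array left out in turn, all calls ranged over 527 to 1389, 2488 to 4591, 2274 to 4624, 290 to 478 and 142 to 789 in that order of comparisons, and member calls over 1 to 1, 3 to 7, 3 to 8, 0 to 0 and 0 to 2. The counts 2488 and 2274 were those without replicate 3 of wild type after hCG, and 527 and 142 those without replicate 3 of wild type after PMSG. Early serial arrays leave 1 array in each hCG group, whose spread is taken from the PMSG arrays, and the interaction has no fit on 6 arrays.

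With the replicate number as a block, Inhba after hCG (1.72; adjusted p = 0.0202) and Inhbb in wild type (-3.74; adjusted p = 0.0199) stayed called by limma, while the second Inhbb probe set and the leading Tgfbr3 probe set (adjusted p = 0.0632 in wild type) did not. Deviations from the group means correlated by -0.141 to 0.265 between arrays with the same replicate number. After PMSG, replicates 1 and 2 of the genotypes also share an array name number, and these pairs correlated by 0.171 and 0.265. Within the array name number the consensus correlation was 0.573. Whether samples were paired was not tested. With the random block on the array name number the genotype difference after hCG was not called for Inhba (1.75; adjusted p = 0.148) or Inhbb (3.31; adjusted p = 0.16), nor was the Inhbb fall in wild type (-3.41; adjusted p = 0.14), while Fst was (1.48; adjusted p = 0.00977). The Fst interaction was called with the SD filter (adjusted p = 0.0346), 1 probe set per gene (adjusted p = 0.0405), array weights (adjusted p = 0.000943), the serial covariate (adjusted p = 0.0461), and without replicate 2 of the knockout after PMSG (adjusted p = 0.0451) or of wild type after hCG (adjusted p = 0.0441).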
